A study of Mus musculus with 12 samples.

Results

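The genes described here were the enzymes of cholesterol synthesis and the proteins that control them through SREBP, a family of membrane-bound transcription factors. They were taken by name, as 28 entries of the 23366 gene entries in each count file: 18 synthesis enzymes, 7 control genes and 3 genes linked to the pathway. The filter on low counts kept 27 of the 28, and Hmgcs1, which makes HMG-CoA, was listed at 0 counts in all 12 libraries. Because Atp6v0c and Eif3j1, genes that every cell uses, were also listed at 0 in all 12 libraries, no level or fold is given for Hmgcs1.

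RNA-seq gene counts were compared between 4 groups of 3 libraries from mouse small intestine, all of the strain given as mixed C57BL/6 CD1. The E12.5 and E14.5 groups hold embryonic epithelium and are named for the embryonic day, sorted as EpCAM-positive, CD31-negative, CD45-negative living cells. Each E12.5 library came from a pool of 20 embryos, and for E14.5 no pool size is given in the sources used here. The ISC group is adult intestinal stem cells, sorted from crypts by high Lgr5-EGFP, a reporter of the stem-cell receptor gene Lgr5. The AE group is adult villus epithelium that the labels call enterocytes, sorted as EpCAM-positive and negative for CD31 and CD45, like the embryo. Both adult groups came from Lgr5EGFP-Cre-ERT males aged 2 months (P60), with 1 gut per library, so the villus cells carry the reporter allele too; the embryos' genotype is not given in the sources used here. In all 6 embryonic libraries the age label names the other stage than the title, so every value below that is given for or against E12.5 or E14.5 rests on the titles, and under the age labels the names of these groups would change places. The fold between ISC and E14.5, for example, is 9.05 for Fdps and 6.75 for Insig1 by the titles and would be 3.96 and 2.53 by the age labels, and the levels given as a percent of E14.5 rest on the titles too.

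Cholesterol is built from acetyl-CoA: the mevalonate arm makes isoprene units, the squalene arm joins and cyclises them to lanosterol, and the sterol ring arm trims lanosterol to cholesterol. When sterol in the endoplasmic reticulum is low, Scap carries SREBP to the Golgi, where the proteases encoded by Mbtps1 and Mbtps2 release the active factor, which raises transcription of the synthesis genes. When sterol is high, Insig1 and Insig2 hold Scap back. In the adult intestine, the epithelium makes cholesterol and villus enterocytes also absorb it from the diet.

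Libraries held 12587626 to 45190749 counts in genes, and levels are given as CPM, counts per 1000000 after scaling between libraries. The summed level of 8 stem-cell markers was 11050 to 12254 CPM in ISC and 403 to 1522 elsewhere, and that of 8 enterocyte markers was 31537 to 68923 CPM in AE and 379 to 2009 elsewhere. Epcam was present in every group, at 483 ± 46.9, 854 ± 20.4, 1043 ± 49.7 and 1603 ± 406 CPM (SD, n = 3) in E12.5, E14.5, ISC and AE. The 16 mesenchymal and smooth-muscle markers summed to 348 to 429 CPM in E14.5 and 174 to 215 in E12.5. They summed to 11 to 12 in ISC (3 of them at 0) and 17 to 18.9 in AE (none at 0). Vim, at 160 ± 24.2 CPM in E12.5 and 72.6 ± 0.801 in E14.5 (SD, n = 3), made most of the E12.5 sum. Gene by gene, 15 were higher in E14.5 than in E12.5 by the test below (23.6% of all genes) and Vim was lower (25.6%). Their median log2 change was 3.27. By sum, these markers were also higher in both embryonic groups than in the adult groups, and their part in the differences below was not tested. Markers of Paneth, goblet, endocrine and tuft cells summed to 11102 to 15563 CPM in AE and 2935 to 4732 in ISC, against 27.4 to 186 in the embryo. In such bulk samples, fewer cells of a type and less RNA per cell cannot be told apart.

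Promoter windows, from 250 bases before to 50 after the start, were found in RefSeq (GRCm38.p6) for 24 of the 28 genes; Fdps, Fdft1, Sqle and Stard4 had no entry. The motifs searched on both strands were CCAAT, the letters that NF-Y binds, which read ATTGG on the opposite strand, GGGCGG, the letters that Sp1 binds, CACGTG, an E-box, and TCACNCCAC, a form of the sterol regulatory element that SREBP binds. CCAAT was in 20 of 24 (83.3%) member promoters, against 42.5% of the 11121 tested genes with a window and 41.1% of all 27025 genes. GGGCGG was in 21 of 24 (87.5%), against 65.1% of tested genes and 38.2% of all. CACGTG was in 5 (20.8%), against 11.1% and 8.09%, and TCACNCCAC was in 1, Hmgcs1 (4.17%), against 1.47% and 1.44%. The same letters with an A before them were in 0 of the 24 and in 0.243% of tested genes. A looser form, ATCACNNCA, which can overlap the last and was searched after the sequences had been seen, was in Cyp51 and Srebf2 (8.33%), against 2.17% and 3.19%. The windows below belong to genes on which the results turn: Lss, Cyp51 and Insig1, which were low in ISC, Srebf2, which encodes the SREBP of the sterol pathway, and Acss2, which was high in ISC. Capitals mark CCAAT or ATTGG and, in Cyp51 and Srebf2, the ATCACNNCA match; in Hmgcs1, of which 29 bases are shown, they mark TCACCCCAC. Apart from that of Hmgcs1, the windows end at the base before the start, and all read 5′ to 3′ along the gene's strand: Lss from chr10:76531355-76531604 (plus strand), Cyp51 from chr5:4104698-4104947 (minus), Insig1 from chr5:28071162-28071411 (plus), Srebf2 from chr15:82147019-82147268 (plus), Acss2 from chr2:155517793-155518042 (plus) and Hmgcs1 from chr13:119690204-119690232 (plus).
Lss: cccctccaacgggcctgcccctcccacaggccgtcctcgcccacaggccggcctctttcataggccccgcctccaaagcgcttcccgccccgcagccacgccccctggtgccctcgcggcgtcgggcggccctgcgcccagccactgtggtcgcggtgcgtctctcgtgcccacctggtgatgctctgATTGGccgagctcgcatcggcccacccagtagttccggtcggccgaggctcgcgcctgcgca
Cyp51: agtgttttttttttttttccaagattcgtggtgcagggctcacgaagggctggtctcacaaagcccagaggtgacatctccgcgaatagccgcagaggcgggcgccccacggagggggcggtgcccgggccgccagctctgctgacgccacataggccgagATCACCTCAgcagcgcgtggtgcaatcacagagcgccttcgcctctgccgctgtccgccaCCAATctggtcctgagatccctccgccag
Insig1: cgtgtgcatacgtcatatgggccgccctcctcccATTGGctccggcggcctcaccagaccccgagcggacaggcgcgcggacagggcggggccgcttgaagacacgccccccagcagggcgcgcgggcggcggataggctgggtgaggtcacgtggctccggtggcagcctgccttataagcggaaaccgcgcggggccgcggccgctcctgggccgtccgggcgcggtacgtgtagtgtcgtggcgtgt
Srebf2: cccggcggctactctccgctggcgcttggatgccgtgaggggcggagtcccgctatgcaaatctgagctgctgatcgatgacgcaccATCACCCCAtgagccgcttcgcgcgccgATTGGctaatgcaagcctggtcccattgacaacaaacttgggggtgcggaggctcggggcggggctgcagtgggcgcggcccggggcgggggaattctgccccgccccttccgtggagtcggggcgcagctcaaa
Acss2: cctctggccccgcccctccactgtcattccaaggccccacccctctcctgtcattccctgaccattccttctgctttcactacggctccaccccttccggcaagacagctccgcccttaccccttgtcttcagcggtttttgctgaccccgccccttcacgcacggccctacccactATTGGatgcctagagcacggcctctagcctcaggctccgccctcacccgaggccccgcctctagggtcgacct
Hmgcs1: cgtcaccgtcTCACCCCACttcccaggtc
The CCAAT letters began 62 bases before the start in Lss, 29 in Cyp51, 216 in Insig1, 135 in Srebf2 and 73 in Acss2, so promoters of genes that were low and of the gene that was high in ISC both held them. The ATCACNNCA match began 89 bases before the start in Cyp51 and 163 in Srebf2. A match is a description of the letters and not a measured site.

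Across the 4 groups, the pathway stood lowest in stem cells, a pattern already known when these genes were listed. Adjusted p-values are from the quasi-likelihood F test of edgeR over 15342 genes, and a change was called at an adjusted p under 0.05. Of the 27 genes tested, 20 were lower in ISC than in each of the other 3 groups, which held for 6.71% of all genes tested. The 20 included 15 of the 17 synthesis enzymes tested. The other 7 were Lbr, Ebp, Scap, Insig2, Mbtps1, Mbtps2 and Acss2. The lowest group mean was in ISC for 22 of 27 members (19.1% of all genes), and the highest was in E14.5 for 15 of 27 (14.9% of all genes).

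**Figure D1:**
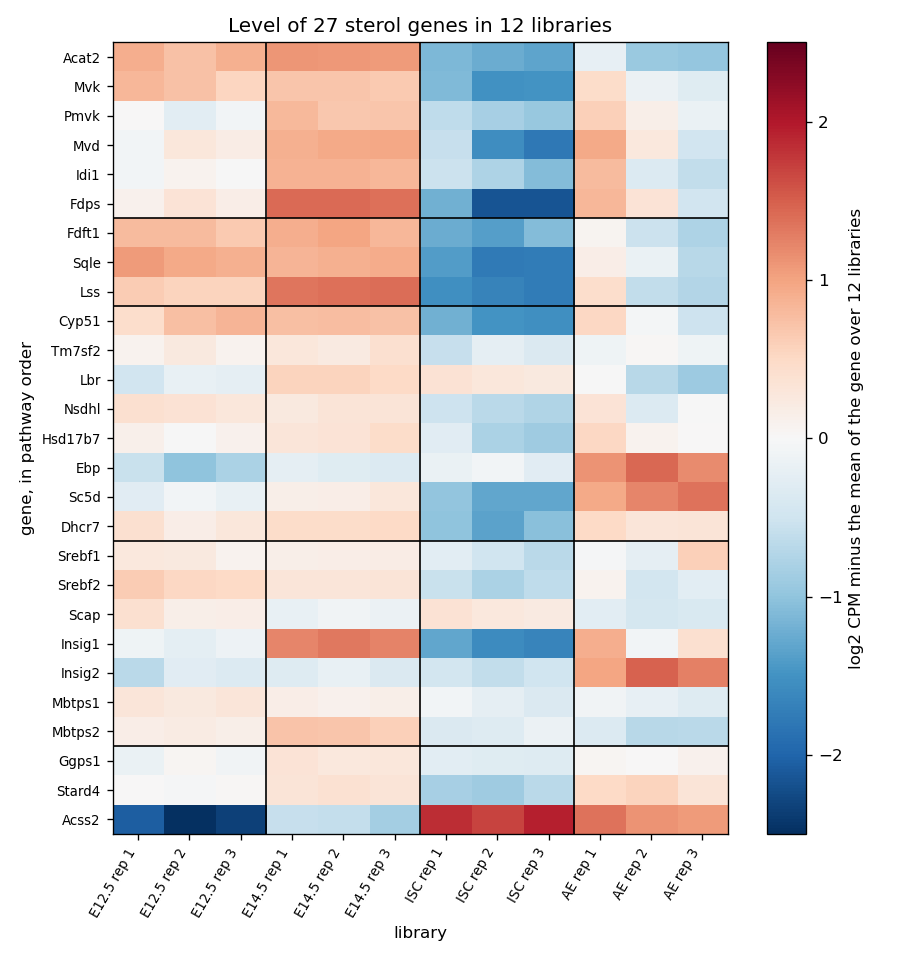
Log2 CPM of each of the 27 tested genes (rows, in pathway order) in each of the 12 libraries (columns), after subtracting the gene's mean over the 12 libraries. The 3 ISC columns are blue for most synthesis genes and red for Acss2, and AE replicate 1 is redder than the other AE columns in the mevalonate and squalene arms.

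Each pair of groups gave its own count, beside which stands the share of all genes tested that was called the same way. In ISC against E12.5, 25 of 27 members were called (68.5% of all genes), 22 lower (34.6%) and 3 higher (33.9%). In ISC against E14.5, 24 were called (60.7%), 22 lower (30.6%) and 2 higher (30.2%). In AE against ISC, 26 were called (67.8%), 22 higher (32.6%) and 4 lower (35.2%). In E14.5 against E12.5, 14 were called (49.2%), 13 higher (23.6%) and 1, Scap, lower (25.6%). Srebf2 joined Scap without AE replicate 1 (log2 change -0.24, adjusted p = 0.0236), which made 2 lower. With the 6 embryonic libraries alone, 17 members were higher and 2 lower (5167 and 4872 of 14836 genes). In AE against E14.5, 20 were called (78.2%), 4 higher (36.7%) and 16 lower (41.5%). In AE against E12.5, 17 were called (82.1%), 6 higher (38.4%) and 11 lower (43.7%). Upper-quartile scaling moved that last split to 4 higher and 13 lower. The median log2 change of the 27 was -1.14 for ISC against E14.5, -0.80 for ISC against E12.5, 0.89 for AE against ISC and 0.29 for E14.5 against E12.5, where that of all genes was -0.00, -0.01, -0.05 and -0.02. These comparisons share libraries, so they are not independent of each other. The share of reads listed as not uniquely aligned was 3.06% to 5.96% in E12.5 and ISC but 0 in every library of the other two groups. Only the comparisons of ISC with E12.5 and of AE with E14.5 do not cross that split, and its part in the results was not tested.

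**Figure D2:**
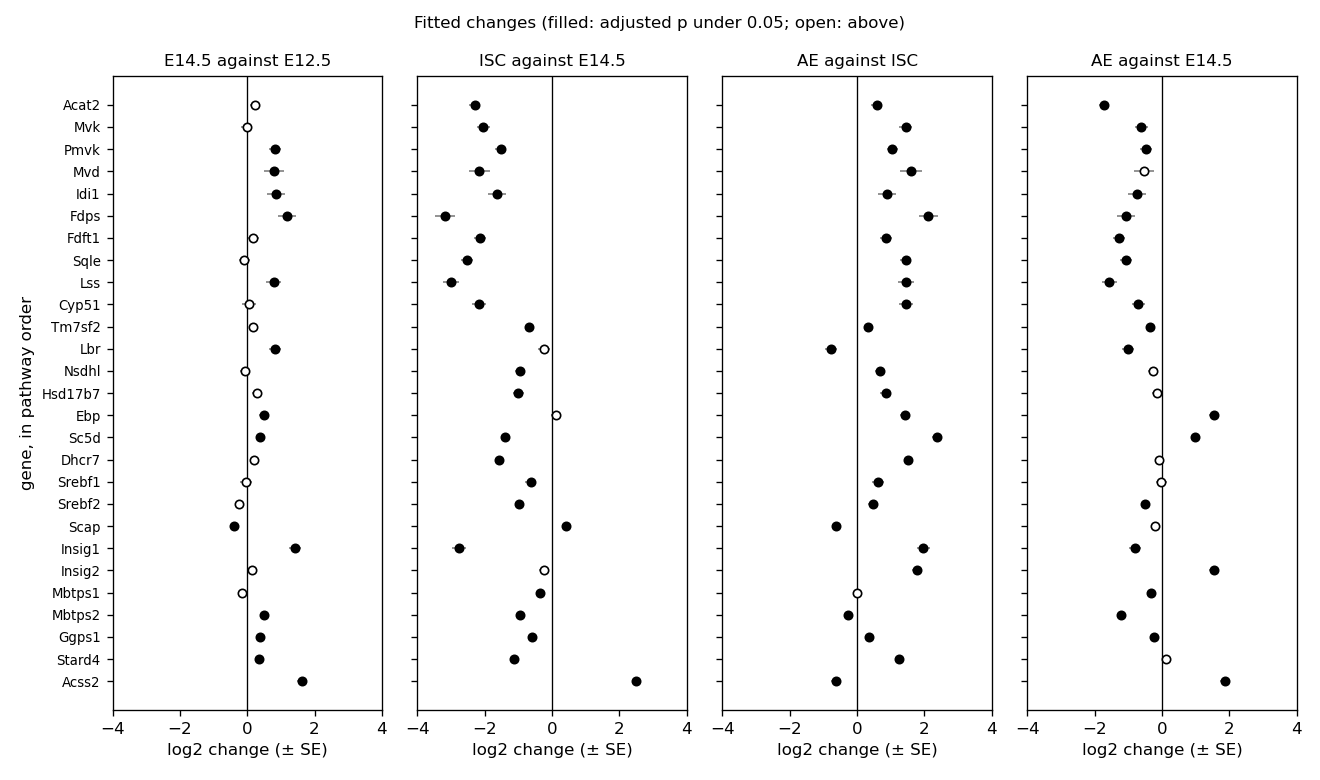
Fitted log2 change ± standard error of each gene in 4 of the 6 comparisons (panels); filled points passed an adjusted p of 0.05 and open points did not. In ISC against E14.5 all but 5 of the 27 points are filled and left of 0, and Acss2 lies far to the right.

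The mevalonate arm was low in stem cells at every step tested. Its 6 tested genes stood at 11.2% (Fdps) to 34.7% (Pmvk) of their E14.5 mean in ISC, with a median of 23.5%, and at 30.1% to 70.7% in AE. Acat2, which condenses acetyl-CoA at the head of the pathway, was at 92.9, 83.3 and 92.4 CPM in E12.5 replicates 1 to 3, 107, 105 and 104 in E14.5, 22.8, 21.2 and 20.0 in ISC and 43.0, 26.3 and 25.6 in AE. Both embryonic groups lay above every adult library, and AE above ISC. The fold was 4.93 between E14.5 and ISC (log2 change -2.30, SE 0.17, adjusted p = 3.57e-08) and 1.5 between AE and ISC (0.58, SE 0.17, 0.00608). The AE call was lost under upper-quartile scaling (0.39, adjusted p = 0.0555), and 39.1% of the 50-base stretches of Acat2 also occur in Acat3, so its counts are uncertain.

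Mvk, mevalonate kinase, was at 28.5, 26.6 and 23.2 CPM in E12.5, 26.1, 25.9 and 25.2 in E14.5, 7.48, 5.61 and 5.70 in ISC and 22.1, 14.54 and 13.1 in AE. Pmvk, which adds the next phosphate, was at 21.6, 17.9 and 20.5 CPM in E12.5, 37.8, 34.2 and 35.0 in E14.5, 13.8, 12.1 and 11.1 in ISC and 32.7, 23.9 and 19.1 in AE. For both kinases all 3 ISC libraries lay below every other library. Mvd, the decarboxylase that makes isopentenyl diphosphate, was at 12.6, 16.0 and 14.9 CPM in E12.5, 24.4, 25.2 and 25.7 in E14.5, 8.81, 4.47 and 3.83 in ISC and 25.2, 15.7 and 9.48 in AE. Its AE libraries ran from below the E12.5 range to the E14.5 range, and all ISC libraries lay below them. The log2 changes of ISC against E14.5 were -2.05 (SE 0.19, adjusted p = 4.71e-07) for Mvk, -1.53 (0.17, 3.30e-06) for Pmvk and -2.16 (0.32, 4.99e-05) for Mvd. Between the embryonic stages Pmvk was 1.78-fold higher in E14.5 (adjusted p = 0.000947), Mvk was not called (log2 change -0.02, 0.943), and the Mvd call (0.79, 0.0397) was lost when any of the 6 embryonic libraries was left out (adjusted p up to 0.124).

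Idi1, which isomerises isopentenyl diphosphate, was at 23.5, 25.9 and 24.4 CPM in E12.5, 44.6, 44.9 and 43.6 in E14.5, 16.9, 14.3 and 11.5 in ISC and 42.2, 19.2 and 16.0 in AE. Replicate 1 of AE lay just below the E14.5 libraries, while replicate 3 of AE lay below the highest ISC library. Without AE replicate 1 the log2 change of AE against ISC went from 0.89 (adjusted p = 0.00992) to 0.32 (0.0799) and that of AE against E14.5 from -0.75 to -1.33; the latter was not called without AE replicate 2 (-0.57, 0.0811) or replicate 3 (-0.51, 0.0742). ISC against E12.5 was called (-0.79, SE 0.27, adjusted p = 0.0182) but not without ISC replicate 3 (-0.67, 0.069), and E14.5 against E12.5 (0.85, 0.0154) not without E12.5 replicate 1 (0.82, 0.0505). Fdps, which makes the farnesyl unit, was at 31.2, 36.4 and 32.4 CPM in E12.5, 76.6, 77.0 and 74.8 in E14.5, 12.55, 6.48 and 6.48 in ISC and 51.0, 36.6 and 20.8 in AE. Its ISC libraries were below all others, by 9.05-fold against E14.5 (log2 change -3.18, SE 0.29, adjusted p = 4.40e-07), and it was 2.29-fold higher in E14.5 than in E12.5 (1.19, SE 0.26, 0.00206). Shared 50-base stretches make up 25.3% of Idi1 and 26.2% of Fdps, most of the latter with Gm43738, so the counts of both are uncertain.

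The squalene arm had the lowest medians of the 3 arms, 17.5% of the E14.5 mean in ISC and 41.0% in AE. Fdft1, squalene synthase, was at 224, 226 and 204 CPM in E12.5, 245, 257 and 232 in E14.5, 54.8, 50.3 and 61.8 in ISC and 136, 89.8 and 76.0 in AE. Sqle, squalene epoxidase, was at 228, 212 and 203 CPM in E12.5, 198, 203 and 208 in E14.5, 41.4, 32.3 and 32.6 in ISC and 123, 97.2 and 67.6 in AE. Lss, lanosterol synthase, was at 82.0, 77.4 and 77.1 CPM in E12.5, 133, 137 and 139 in E14.5, 18.3, 16.6 and 15.8 in ISC and 71.2, 34.3 and 31.9 in AE. In all 3 genes every embryonic library lay above every AE library, and every AE library above every ISC library. Against E14.5, ISC was lower by 4.40-fold in Fdft1 (log2 change -2.14, SE 0.17, adjusted p = 1.10e-07), 5.73-fold in Sqle (-2.52, SE 0.18, 2.62e-08) and 8.08-fold in Lss (-3.01, SE 0.24, 9.09e-08). AE stayed 2.43-fold, 2.10-fold and 2.94-fold below E14.5 in the same order (adjusted p = 8.02e-06, 4.57e-05 and 2.02e-05). In the main fit Lss alone of the 3 was called between the embryonic stages, 1.73-fold higher in E14.5 (adjusted p = 0.00852). Fdft1 was also called as higher in E14.5 with the 6 embryonic libraries alone (log2 change 0.21, adjusted p = 0.00952). Fdft1 shares 26.5% of its stretches, most with Ctsb on the opposite strand, and the strand setting of the counting was not known, so its counts are uncertain.

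**Figure D3:**
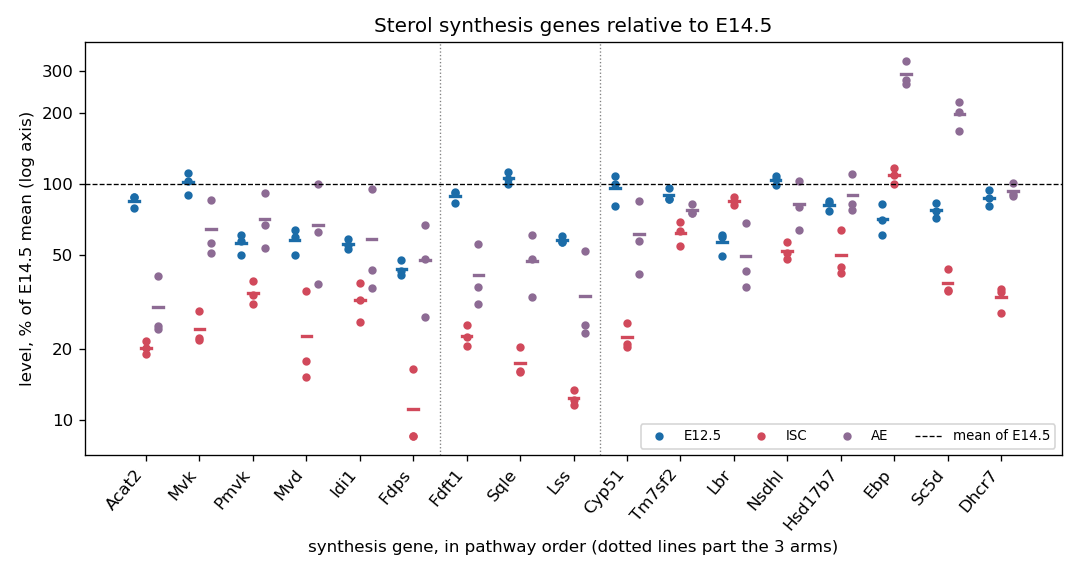
Level of the 17 tested synthesis genes in pathway order as a percent of each gene's E14.5 mean (log axis); points are libraries of E12.5, ISC and AE and bars are their means. ISC means lie between 11.2% and 34.7% through the mevalonate and squalene arms, and all AE points lie above the E14.5 line at Ebp and Sc5d.

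The sterol ring arm was mixed. In ISC its 8 genes ranged from 22.4% (Cyp51) to 109% (Ebp) of their E14.5 mean, with a median of 51.0%, and in AE from 49.2% (Lbr) to 291% (Ebp), with a median of 86.0%. Cyp51, which removes a methyl group from lanosterol, was at 212, 261 and 282 CPM in E12.5, 261, 265 and 259 in E14.5, 67.3, 54.9 and 53.5 in ISC and 222, 150 and 109 in AE. Cyp51 was 4.47-fold lower in ISC than in E14.5 (log2 change -2.16, SE 0.21, adjusted p = 6.07e-07) and 2.75-fold higher in AE than in ISC (1.46, SE 0.20, 1.91e-05). In ISC it was within the range of the squalene arm (12.4% to 22.7% of the E14.5 mean). In AE it stood above that arm, at 61.4% against 33.5% to 47.3%, and its AE libraries overlapped those of E12.5.

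The next step, reduction of the sterol at carbon 14, has a pair of enzymes, Tm7sf2 and Lbr, the latter also a receptor for lamin B in the nuclear envelope. Lbr was at 79.2, 97.2 and 94.7 CPM in E12.5, 161, 162 and 156 in E14.5, 141, 135 and 130 in ISC and 109, 68.4 and 58.6 in AE. It was therefore high in ISC, 1.5-fold above E12.5 (log2 change 0.58, SE 0.17, adjusted p = 0.00838) and not called against E14.5 (-0.24, 0.252; called without AE replicate 1, 0.0337), and AE was lower than ISC (-0.78, SE 0.18, 0.00127). Tm7sf2 had means of 21.3 to 23.8 CPM in the embryo, 14.8 ± 1.71 in ISC and 18.5 ± 0.953 in AE (SD, n = 3), and was lower in ISC than in E14.5 (-0.68, SE 0.12, 0.000232). Its AE against ISC call (0.32, 0.0337) was lost without ISC replicate 1 (0.23, 0.135) and in 3 other of the 12 fits that left out 1 library.

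Nsdhl, a sterol dehydrogenase, was at 97.8, 95.0 and 90.2 CPM in E12.5, 87.8, 92.3 and 92.1 in E14.5, 51.3, 46.2 and 43.8 in ISC and 93.1, 57.9 and 72.8 in AE. Hsd17b7, the reductase that works beside it, was at 71.5, 65.3 and 70.4 CPM in E12.5, 80.6, 83.4 and 90.1 in E14.5, 54, 37.8 and 35.4 in ISC and 93.0, 69.4 and 65.9 in AE. In both, the ISC libraries were the lowest and the AE libraries overlapped those of E14.5. ISC was 1.93-fold below E14.5 in Nsdhl (log2 change -0.95, SE 0.14, adjusted p = 4.92e-05) and 2-fold in Hsd17b7 (adjusted p = 9.85e-05), and AE was above ISC by 0.67 (SE 0.14, 0.000782) and 0.85 (SE 0.16, 0.000323) on the log2 scale.

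Of the 17 enzymes, 3 that act late in the arm had the highest AE means relative to E14.5, namely Ebp (291%), Sc5d (197%) and Dhcr7 (93.4%). Ebp, which moves a double bond of the sterol ring, was at 6.48, 4.75 and 5.5 CPM in E12.5, 8.15, 7.79 and 7.60 in E14.5, 8.55, 9.15 and 7.87 in ISC and 20.9, 26.0 and 21.7 in AE. Sc5d, the desaturase that follows, was at 45.1, 52.0 and 48.3 CPM in E12.5, 60.4, 61.2 and 66.7 in E14.5, 27.5, 22.1 and 22.3 in ISC and 105, 127 and 139 in AE. Dhcr7, a terminal reductase, was at 82.0, 70.3 and 75.6 CPM in E12.5, 85.9, 86.3 and 88.5 in E14.5, 31.3, 24.7 and 30.3 in ISC and 87.8, 77.0 and 78.6 in AE. Ebp and Sc5d were higher in every AE library than in any other library, Sc5d and Dhcr7 were lowest in all 3 ISC libraries, and the ISC libraries of Ebp overlapped those of E14.5. Against E14.5, AE was 2.91-fold higher in Ebp (log2 change 1.54, SE 0.15, adjusted p = 3.51e-07), 1.96-fold higher in Sc5d (0.97, SE 0.12, 5.62e-06) and not called in Dhcr7 (-0.10, SE 0.11, 0.421). Against ISC, AE was higher in all 3, by 2.68-fold, 5.15-fold and 2.82-fold (adjusted p = 1.55e-06, 3.59e-09 and 5.40e-08). The rises of Ebp (0.49, 0.0161) and Sc5d (0.37, 0.0223) from E12.5 to E14.5 were small; the first was lost without E12.5 replicate 2 (0.39, 0.0726) or E14.5 replicate 1 (0.47, 0.0559), and the second without E12.5 replicate 1 (0.33, 0.0791), E12.5 replicate 3 (0.37, 0.0573) or E14.5 replicate 3 (0.34, 0.0787).

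Level per kilobase of merged exon puts the genes on 1 scale. The merged length joins the exons of all annotated transcripts of a gene, 10.8 kilobases for Lss and 2.31 for Ebp. It can exceed the length of the transcripts present, so the ranks below depend on it. In E14.5 the highest synthesis genes on that scale were Cyp51 (59.2 ± 0.601 CPM per kilobase), Fdft1 (57.9 ± 2.92) and Acat2 (41.3 ± 0.596), and the lowest was Ebp (3.40 ± 0.120; SD, n = 3). In ISC, Lbr stood highest (28.4 ± 1.15), above Nsdhl (16.5 ± 1.35), while Lss (1.57 ± 0.118) was lowest. In AE the leading synthesis genes were Cyp51 (36.4 ± 12.9), Nsdhl (26.1 ± 6.19) and Sc5d (25.4 ± 3.56), whose spreads overlapped.

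Replicate 1 of AE stood apart within the AE group in this pathway. It was the highest of the 3 AE libraries for 20 of 27 members (42.0% of all genes), 14 of them among the 17 synthesis enzymes, by 1.38-fold to 2.40-fold over the mean of the other 2 in the arms from Acat2 to Hsd17b7 apart from Tm7sf2 (0.958-fold). Ebp (0.876-fold), Srebf1 (0.835-fold), Sc5d (0.789-fold) and Insig2 (0.760-fold) were below that mean there, and Ggps1 was near it (0.995-fold). The same library had the lowest enterocyte marker sum of the 3 (31537 CPM, against 68923 and 67163) and the highest sum of 20 proliferation genes (2213 CPM, against 1199 and 1327), and the part of either in the result was not tested. Without it, AE against ISC gave 21 higher and 4 lower members, AE against E14.5 gave 4 and 19, AE against E12.5 gave 6 and 13, and 19 members were lower in ISC than in each other group. ISC replicate 1 was the highest ISC library for 21 of 27 members (36.7% of all genes), and without it 18 members were lower in ISC than in each other group.

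Among the control genes, the log2 change of ISC against E14.5 was smaller in size for both factor genes than for 13 of the 17 enzymes, a difference that was not tested. Srebf2, which encodes the SREBP that favours sterol genes, was at 248, 229 and 226 CPM in E12.5, 196, 197 and 200 in E14.5, 108, 92.3 and 103 in ISC and 169, 116 and 132 in AE. Srebf1, whose product favours fatty acid genes, was at 82.3, 81.0 and 72.9 CPM in E12.5, 76.2, 76.5 and 78.4 in E14.5, 57.4, 48.5 and 42.9 in ISC and 67.6, 58.5 and 103 in AE. Every ISC library was below every other library for both genes, although AE replicate 2 of Srebf1 was close to ISC replicate 1. ISC was 1.96-fold below E14.5 for Srebf2 (log2 change -0.97, SE 0.13, adjusted p = 1.31e-05) and 1.55-fold for Srebf1 (-0.64, SE 0.17, 0.00559). AE was above ISC by 1.38-fold for Srebf2 (0.46, SE 0.13, 0.00459; lost under upper-quartile scaling, 0.27, 0.0805) and by 1.54-fold for Srebf1 (0.62, SE 0.17, 0.00579). Per kilobase, the ratio of Srebf2 to Srebf1 was 1.61 ± 0.227 in ISC, 1.5 ± 0.483 in AE, 2.34 ± 0.107 in E12.5 and 2.01 ± 0.0128 in E14.5 (SD, n = 3), the adult values overlapping.

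Scap, the escort that carries SREBP, did not follow the enzymes. It was at 78.4, 65.9 and 66.7 CPM in E12.5, 52.7, 56.0 and 53.7 in E14.5, 76.6, 71.5 and 69.4 in ISC and 49.8, 43.8 and 45.7 in AE. ISC overlapped E12.5 and lay above all E14.5 and AE libraries, 1.34-fold over E14.5 (log2 change 0.42, SE 0.10, adjusted p = 0.00242) and 1.56-fold over AE (AE against ISC -0.64, SE 0.10, 7.10e-05). Of the proteases, Mbtps1 had means of 162 ± 2.92 and 147 ± 2.21 CPM in E12.5 and E14.5 and of 115 ± 11.5 and 116 ± 9.57 in ISC and AE (SD, n = 3), with no call between the adult groups (0.01, 0.93). Mbtps2 was at 48.8, 49.7 and 47.8 CPM in E12.5, 71.3, 70.2 and 65.7 in E14.5, 33.7, 34.6 and 39.1 in ISC and 34.2, 26.8 and 27.1 in AE. Mbtps2 was thus lower in both adult groups than in E14.5, by 1.93-fold in ISC (adjusted p = 5.76e-06) and 2.34-fold in AE (2.30e-07); the AE against ISC call (-0.28, 0.0441) was lost in 10 of the 12 fits that left out 1 library (adjusted p up to 0.229), and 28.9% of its stretches are shared, most with Yy2.

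The anchors Insig1 and Insig2 differed from each other. Insig1, whose own transcription SREBP raises, was at 111, 99.9 and 109 CPM in E12.5, 278, 295 and 279 in E14.5, 48.5, 40.0 and 37.8 in ISC and 223, 113 and 156 in AE. No library of any group overlapped another group's, in the order E14.5, AE, E12.5, ISC, although AE replicate 2 was close to E12.5 replicate 1. The Insig1 call of AE against E12.5 (0.63, 0.00589) was lost under upper-quartile scaling (0.37, adjusted p = 0.0827). The change was 2.67-fold from E12.5 to E14.5 (log2 change 1.42, SE 0.19, adjusted p = 3.04e-05), 6.75-fold between E14.5 and ISC (-2.76, SE 0.20, 2.73e-08) and 3.91-fold between AE and ISC (1.97, SE 0.19, 6.00e-07). Insig2 was at 14.9, 19.5 and 18.8 CPM in E12.5, 19.1, 21 and 18.5 in E14.5, 17.2, 15.5 and 16.7 in ISC and 46.8, 66.1 and 57.1 in AE. It was high in AE alone, 3.43-fold over ISC (1.78, SE 0.15, 1.28e-07) and 2.89-fold over E14.5 (1.53, SE 0.14, 2.39e-07), and ISC was not called against E12.5 (-0.10, 0.545) or E14.5 (-0.25, 0.155). Per kilobase, Insig1 exceeded Insig2 by ratios of 2.87 ± 0.308 in ISC, 3.45 ± 1.74 in AE, 6.87 ± 1.33 in E12.5 and 16.4 ± 0.565 in E14.5 (SD, n = 3), and the ISC and AE ratios overlapped.

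**Figure D4:**
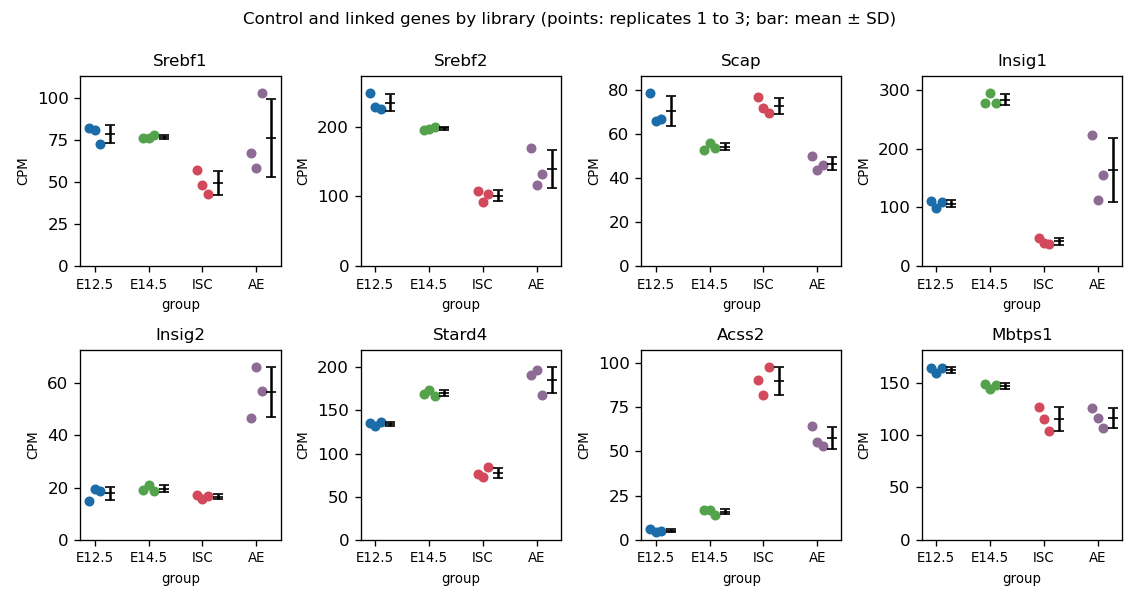
Level in CPM of 6 control genes that the text describes and of Stard4 and Acss2, by group; points are replicates 1 to 3 from left to right and bars are mean ± SD, on axes that start at 0. Insig1 and Stard4 fall in ISC, Insig2 is high in AE and Acss2 is high in ISC.

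Of the linked genes, Stard4, a carrier that moves sterol between membranes, was at 135, 132 and 137 CPM in E12.5, 169, 174 and 167 in E14.5, 75.7, 72.3 and 83.8 in ISC and 191, 197 and 168 in AE. The ISC libraries lay below all others, 2.20-fold under E14.5 (log2 change -1.14, SE 0.10, adjusted p = 1.51e-07), and AE overlapped E14.5 (0.12, 0.244). Ggps1, which makes the geranylgeranyl unit at a branch off Fdps, had means of 44.4 ± 3.22, 57.3 ± 1.35, 38.2 ± 0.739 and 48.6 ± 1.61 CPM (SD, n = 3) in E12.5, E14.5, ISC and AE. It was 1.5-fold lower in ISC than in E14.5 (-0.59, SE 0.09, 7.80e-05), while the call of ISC against E12.5 (-0.22, 0.0475) was lost in 8 of 12 fits that left out 1 library (adjusted p up to 0.184) and that of AE against ISC (0.35, 0.00427) under upper-quartile scaling (0.15, 0.181). Acss2, which makes acetyl-CoA from acetate and so feeds the pathway, was at 6.10, 4.13 and 5.03 CPM in E12.5, 16.9, 16.7 and 14.1 in E14.5, 90.4, 81.8 and 97.6 in ISC and 64.6, 55.5 and 53.0 in AE. All ISC libraries lay above all AE libraries, both above the embryo, and E14.5 above E12.5. ISC exceeded E12.5 by 17.6-fold (4.13, SE 0.16, adjusted p = 2.44e-11) and E14.5 by 5.64-fold (2.50, SE 0.14, 3.01e-09), and AE was lower than ISC (-0.64, SE 0.14, 0.000848).

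Other genes of the pathway, from lists set apart from the 28, were read the same way in ISC against E14.5 and in AE against ISC. Of 11 tested genes that supply or assist synthesis, 5 were lower and 1 higher in ISC (30.6% and 30.2% of all genes), and 9 were higher and 1 lower in AE than in ISC (32.6% and 35.2% of all genes). Sc4mol, the sterol C4-methyl oxidase, had means of 63.8 ± 5.27, 84.7 ± 0.786, 10.1 ± 2.84 and 70.4 ± 16.7 CPM (SD, n = 3) in E12.5, E14.5, ISC and AE, so that ISC was below E14.5 (log2 change -3.08, SE 0.20, adjusted p = 1.25e-08), beside -3.01 for Lss and -3.18 for Fdps. The gene that was higher in ISC, Tmem97, which encodes a sterol-binding membrane protein, had means of 18.7 ± 1.08 CPM in E14.5 and 34.5 ± 7.11 in ISC. Of 22 genes of SREBP transport and sterol-regulated protein degradation, 9 were lower (30.6% of all genes) and 2, Trib1 and Syvn1, higher (30.2%) in ISC than in E14.5, and 16 were higher (32.6%) and 3 lower (35.2%) in AE than in ISC. The largest rises in AE were those of Sec24d, at 13.7 ± 1.6 CPM in ISC and 270 ± 81.7 in AE, and Sec23a, at 52.3 ± 6.29 and 430 ± 44.5, both of the COPII coat that carries cargo out of the endoplasmic reticulum.

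The list of fatty acid genes linked to SREBP also held Mlxipl, the gene of another transcription factor. In ISC against E14.5, 13 of the 17 tested were lower (30.6% of all genes) and 3 higher (30.2%). Their median log2 change was -1.02. Scd2, a desaturase, fell from 2030 ± 87.4 CPM in E14.5 to 48.2 ± 13.8 in ISC (log2 change -5.40, SE 0.29, adjusted p = 1.46e-09), and Mlxipl, which encodes the carbohydrate-responsive factor ChREBP, rose from 29.7 ± 2.44 to 814 ± 64.8 (4.78, SE 0.16, 1.32e-11). In AE against ISC they were split, with 6 higher (32.6% of all genes), 7 lower (35.2%) and a median of -0.21, near the shares of all genes, beside 16 higher and 1 lower of the 17 synthesis enzymes; the difference between the lists was not tested. Of 19 genes of the isoprenoid branch, which uses the farnesyl unit for prenylation, ubiquinone and dolichol, 4 were lower (30.6% of all genes) and 4 higher (30.2%) in ISC than in E14.5 (median -0.06), and 6 were higher (32.6%) and 5 lower (35.2%) in AE than in ISC, at or below the shares of all genes. Pdss1 and Pdss2, which build the ubiquinone tail, were among the higher, at 43.2 ± 5.34 and 29.1 ± 3.72 CPM in ISC against 21.5 ± 0.882 and 14.1 ± 0.698 in E14.5.

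Of 22 tested genes of sterol uptake, storage and export, 11 were higher (30.2% of all genes) and 6 lower (30.6%) in ISC than in E14.5, and 13 were higher (32.6%) and 1 lower (35.2%) in AE than in ISC. Abcg5 and Abcg8, which together export sterol to the lumen, were at 0.562 ± 0.312 and 0.260 ± 0.186 CPM in E14.5, at 48.1 ± 0.397 and 60.8 ± 5.36 in ISC and at 330 ± 87.1 and 422 ± 168 in AE. Npc1l1, which takes up dietary sterol, rose from 106 ± 29.3 CPM in ISC to 2897 ± 1167 in AE (log2 change 4.78, SE 0.29, adjusted p = 8.78e-09). Lipa, the lysosomal lipase that frees sterol from its esters, was at 9.77 ± 3.71 CPM in ISC, 170 ± 90.9 in AE, 162 ± 9.96 in E12.5 and 23.8 ± 1.52 in E14.5. The 20 proliferation genes summed to 4606 to 4765 CPM in E14.5, 4855 to 5650 in ISC and 1199 to 2213 in AE, and 18 of them were lower in AE than in ISC (35.2% of all genes). In ISC against E14.5, 8 were lower (30.6% of all genes) and 2 higher (30.2%), with a median log2 change of -0.36. Mki67, the largest part of the ISC sum, was at 1015 ± 22.5 CPM in E14.5 and 2118 ± 262 in ISC (SD, n = 3). The sums therefore do not stand for the list gene by gene.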

How the data were processed

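The files held gene counts that the authors made and deposited, as whole numbers with no normalization, 1 file per library. Per the submitters' processing notes, the tools were bcl2fastq 1.8.4, STAR 2.3.1z13, SAMtools 1.2, HTSeq 0.6.1p1 and DESeq2 1.6.3 with the mm9 build; for the annotation and the strand setting, nothing is stated there. Amplification with the Ovation v2 kit from 50 ng of RNA, per the labels' protocols, came before library preparation and can shift counts between transcripts.

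The 5 rows that name no gene were left out; reads assigned to no feature were 33.4% to 58.1% of each library. Low counts were filtered with filterByExpr, scaling used the trimmed mean of M values (factors 0.696 to 1.16), and all 12 libraries were fitted together with edgeR 4.0.16 in R 4.3.3 (quasi-likelihood F test, Benjamini-Hochberg adjustment over 15342 genes, threshold 0.05, common biological coefficient of variation 0.154). Fold changes are fitted values with a prior count of 0.125, and a standard error is the log2 change divided by the square root of F. With 3 libraries per group, the labels describe separate embryo pools or guts only in part, so p-values set each change against the spread between these libraries. That spread was estimated over all 4 groups at once, so the p-values of a comparison also rest on libraries outside it. Without AE replicate 1, for example, the adjusted p of Acat2 in E14.5 against E12.5 went from 0.238 to 0.0221. Within groups, the chi-square per degree of freedom between replicates ran from 3.48 (E14.5 replicates 1 and 2) to 147 (AE replicates 1 and 2), so no library was counted as a duplicate. The 3 pairs of E14.5 (3.48, 5.91 and 10.2) were closer than those of the other groups (13.3 to 147). This check cannot show whether libraries came from separate pools or guts, since separate preparations of the same RNA can also differ.

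The members and gene lists were chosen with earlier results of these data known. Values in every library are given for Srebf1, Srebf2, Scap, Insig1, Insig2 and each member with a log2 change of at least 1 in size and an adjusted p under 0.05 in any comparison. Of each other pathway list, the genes named are drawn from the 2 with the largest called changes in a comparison; Tmem97, Sec23a and the sterol exporters were named under the same rule. Some genes that the rule covers are not reported here. Alternative models were DESeq2 1.42.0, limma-voom (limma 3.58.1) and a replicate block. Other alternatives were other scalings, no filter, the 6 libraries of a comparison alone and leaving out each library. Only the main edgeR model was run on simulated data, and the alternatives were not. Sharing of sequence was counted as the percent of 50-base stretches of a gene's exons found in another gene's, and over 20% was called uncertain (5 members). Promoter sequences are from RefSeq on GRCm38.p6, which is not the build of the counts, and gene length is the merged exon length.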

Additional observations from a re-analysis of the deposited data

How the results depend on the processing

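Of 162 member changes tested, 126 were called, of which 19 were lost under at least 1 of 19 alternatives, and 15 others were gained. The 1 change whose sign turned with a call was Idi1 in AE against E12.5, from 0.10 (adjusted p = 0.728) to -0.47 (0.00977) without AE replicate 1, by edgeR; leaving out each library in turn gave -0.47 to 0.37. No comparison's total of called members moved by over 1.5 times, but the members lower in E14.5 than in E12.5 went from 1 to 2 with the 6 libraries of these groups alone and without AE replicate 1. With those 6 libraries alone the higher members went from 13 to 17, and the called genes of all kinds from 7544 of 15342 to 10039 of 14836. Acat2, Fdft1, Hsd17b7 and Dhcr7 were gained as higher in E14.5 there (adjusted p = 0.00144, 0.00952, 0.000573 and 0.00565). The number lower in ISC than in each other group ran from 16 to 20 of the 27, with 16 under upper-quartile scaling. Leaving out the 5 members that share over 20% of their sequence gave 16 of 22. That step removed genes from the main fit and changed no call, and it was chosen after seeing the data. Upper-quartile scaling moved the median log2 change of all genes from -0.05 to -0.25 in AE against ISC, from -0.12 to -0.37 in AE against E14.5 and from -0.15 to -0.42 in AE against E12.5, and its calls were 18 higher and 4 lower, 4 and 21, and 4 and 13. The cause was not tested. Deviations of same-numbered libraries from their group means correlated at -0.0806 to 0.0796 (18 correlations). With 3 libraries per group, such values cannot show whether libraries were paired. With a replicate block the called members numbered 14 in E14.5 against E12.5, 24 in ISC against E12.5 and 24 in ISC against E14.5. They numbered 25 in AE against ISC, 19 in AE against E14.5 and 17 in AE against E12.5.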
